A study of Mus musculus with 9 samples.

Results

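The transcription factors *Snai1*, *Snai2*, *Twist1*, *Zeb1*, *Zeb2* and *Sox9* were examined in RNA-seq data from mouse embryonic hearts in which *Ctcf* was deleted. They were picked by name, as factors of the endocardial cushion, with earlier results of these data known. All 6 were among the 14011 genes of the expression table. The series holds 9 libraries of whole hearts at E10.5, 3 for each of 3 genotypes, with the RNA of 6 pooled hearts in each library. Controls lacked the Cre driver and are labelled *Ctcf* fl/fl, while the methods of the study give *Ctcf* fl/+ for the sequenced controls. Heterozygotes were *Ctcf* fl/+; *Nkx2.5-Cre*/+ and homozygotes were *Ctcf* fl/fl; *Nkx2.5-Cre*/+. The strain of all groups is given as a mix, all embryos came from crosses of *Ctcf* fl/+; *Nkx2.5-Cre* with *Ctcf* fl/fl mice, and none was treated. *Nkx2.5-Cre* acts in precursors of cardiomyocytes in the cardiac crescent, so a pooled heart also holds cells in which the driver does not act, and the driver itself differs between controls and the other genotypes. By immunostaining at E10.5 the study found no CTCF in cardiomyocytes of homozygotes, while it remained in their endocardium.

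Heart valves and septa grow from endocardial cushions. Myocardium of the atrioventricular canal and outflow tract secretes a swollen matrix and BMP and TGFβ ligands, and endocardial cells beneath it loosen their junctions and invade that matrix as mesenchyme, an epithelial-to-mesenchymal transition (EMT). *Snai1* and *Snai2* encode zinc finger repressors of cadherin and other junction genes, *Zeb1* and *Zeb2* encode larger repressors that bind the same kind of E-box, *Twist1* encodes a basic helix-loop-helix factor of the cushion mesenchyme, and *Sox9* encodes a factor needed by that mesenchyme after it has formed and for its cartilage-like matrix. The factors are thus used mostly by endocardial and mesenchymal cells, and in libraries of whole hearts fewer cells of a type and less RNA per cell cannot be told apart.

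The reads recovered from the values of the 14011 genes numbered 4294537 to 11629365 per library, without reads of genes not listed. The deposited value is a read count scaled by a factor for its library, with which 1 read was worth 0.0901 to 0.231. This factor was not set by the recovered reads alone, because the summed values differed between libraries and were higher in homozygotes. How the factor was derived was not tested. *Ctcf*, the deleted gene, had values of 121 to 122 in controls, 94.2 to 101 in heterozygotes and 79.6 to 84.7 in homozygotes, in the order given by the labels. Defining markers of the heart were high in all libraries, with summed values of 24514 to 33210 for 18 cardiomyocyte genes, 1475 to 1865 for 18 endocardial and endothelial genes and 1852 to 2259 for 16 cushion mesenchyme genes. Erythroid genes rose in homozygotes (limma, adjusted p under 0.05), 12 of 13 against controls and 12 of 13 against heterozygotes (92.3% in each, beside 15.2% and 13.6% of all genes). Against controls the number was 2 to 6 without control library 2 or 3 or homozygote replicate 2 or 3 and 6 with quantile normalization or DESeq2, and it was 1 and 6 in these comparisons without limma's mean-variance trend. They made up 3.74% to 5.45% of the values in controls, 3.01% to 4.90% in heterozygotes and 6.33% to 8.09% in homozygotes. The effect of scaling without these genes was computed as if all libraries had the same summed value. It would then raise every other log2 fold change in homozygotes by 0.04 against controls and by 0.05 against heterozygotes. The sums were higher in homozygotes, so neither this size nor this direction applies to the deposited values. Control library 1 stood apart by genes of liver and gut endoderm, whose summed value was 980 there and 15.4 to 88.1 in the other libraries, so its effect is given beside *Snai1*, *Twist1* and *Cdh1*.

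Per kilobase of annotated exon, *Twist1* had the highest value of the factors and *Zeb2* the lowest. The length joins the exons of all transcripts, which number 11 for *Zeb2*, 8 for *Zeb1*, 2 for *Sox9* and 1 for *Snai1*, *Snai2* and *Twist1*. Values per kilobase can thus be too low for the *Zeb* genes, and the last place of *Zeb2* depends on this choice of length. In controls the mean value per kilobase was 23.1 ± 3.33 (SD, n = 3) for *Twist1*, 8.19 ± 0.617 for *Sox9*, 8.16 ± 0.559 for *Zeb1*, 5.37 ± 0.658 for *Snai1*, 5.25 ± 1.00 for *Snai2* and 3.68 ± 0.36 for *Zeb2*. The libraries of neighbors in this order did not overlap except for *Sox9* with *Zeb1* and *Snai1* with *Snai2*, which could not be ordered. In heterozygotes *Zeb1* came before *Sox9*, at 8.47 ± 0.490 and 6.92 ± 0.870 per kilobase, and these libraries did not overlap. In homozygotes *Snai1* had 3.66 ± 0.771 per kilobase, and its libraries overlapped those of *Snai2* at 5.01 ± 0.807 and of *Zeb2* at 3.40 ± 0.0860, so it could not be ordered against either. The summed value of the 6 factors, without division by length, was 212 to 240 in controls, 210 to 236 in heterozygotes and 194 to 204 in homozygotes, so that the homozygous libraries lay below all the others.

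*Snai1* (ENSMUSG00000042821) was the factor that differed most between genotypes. It lies on chromosome 2 of NCBIM37 from 167363695 to 167368314 on the plus strand and has 3 exons and 1621 exonic bases. The control libraries 1, 2 and 3 had values of 9.60, 9.0 and 7.53, the heterozygous libraries 1, 2 and 3 had 11.1, 9.90 and 9.11, and homozygote replicates 1, 2 and 3 had 7.15, 4.65 and 5.99. All homozygous libraries were lower than every control and every heterozygous library, and controls and heterozygotes overlapped. The mean in homozygotes (5.93 ± 1.25, SD, n = 3) was 59.0% of that in heterozygotes (10.05 ± 1.02), a log2 fold change of -0.73 (95% confidence interval -1.10 to -0.36) that passed the test with an adjusted p of 0.0142 (limma). Controls had a mean of 8.71 ± 1.07, of which homozygotes reached 68.1%, and this log2 fold change of -0.53 (-0.90 to -0.16) did not pass, with an adjusted p of 0.0531. Heterozygotes and controls differed by 0.20 (-0.17 to 0.57, adjusted p = 0.865). These comparisons share libraries, so the values against controls and against heterozygotes are not independent of each other.

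**Figure D1:**
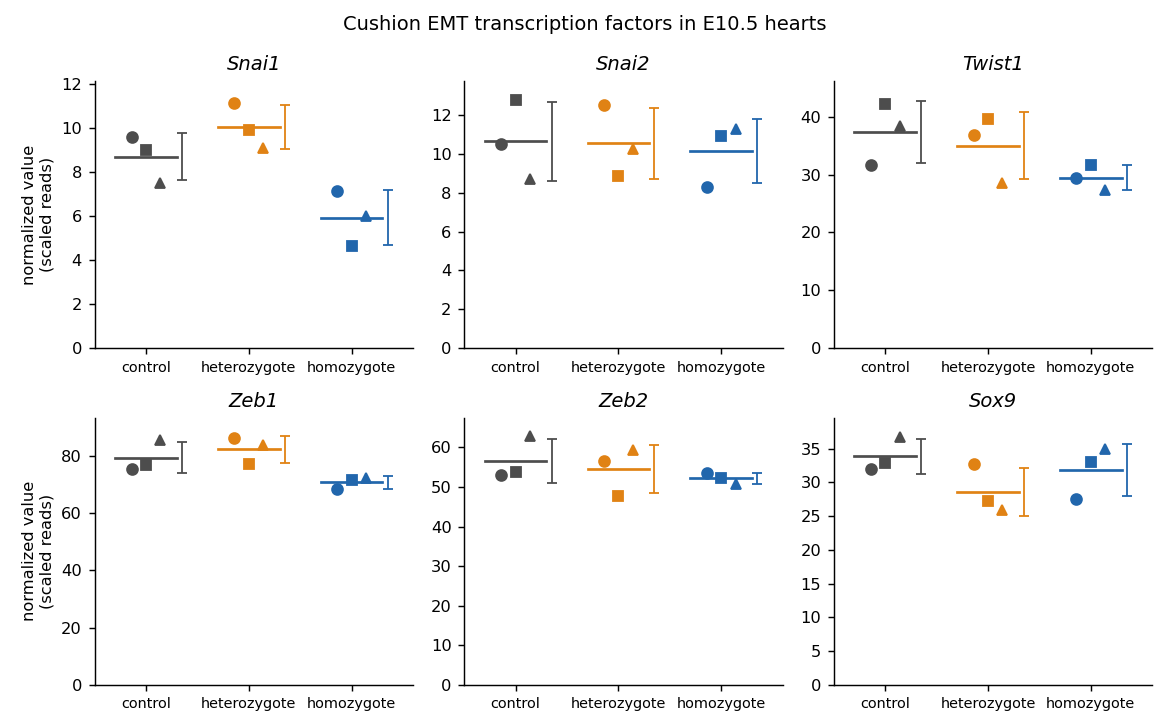
Normalized value (scaled reads, linear axes from 0) of each factor in the 3 control, 3 heterozygous and 3 homozygous libraries. Circles, squares and triangles are libraries 1, 2 and 3 of a genotype, horizontal lines are means and bars are SD. *Snai1* and *Zeb1* are lower in all homozygous libraries than in any other library, and the libraries of the other factors overlap between genotypes in at least one comparison with homozygotes.

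*Snai1* was a weakly expressed gene, and its values rested on 27 to 113 reads per library. Summed over the libraries of a genotype it had 221 reads in controls, 230 in heterozygotes and 124 in homozygotes, and the corresponding values with exact 95% Poisson intervals were 8.75 (7.63 to 9.98), 10.2 (8.96 to 11.7) and 5.79 (4.82 to 6.90). These intervals cover counting error only, and the interval of homozygotes lay below the others. The longest coding transcript of each of the 6 factors was searched against the genome sequence. No single match elsewhere had at least 95% identity over at least 50% of its length. The only shorter match at that identity, of *Snai1*, covered 161 bases. Relative to the summed endocardial and endothelial markers, *Snai1* had 4.04 to 5.62 units per 1000 in controls, 5.47 to 6.47 in heterozygotes and 3.13 to 4.08 in homozygotes. Homozygotes were below all heterozygotes on that scale and overlapped the lowest control library. Relative to the summed cushion mesenchyme markers it had 3.45 to 4.58, 4.40 to 5.44 and 2.48 to 3.23 units per 1000, and homozygotes did not overlap with either genotype.

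The call of *Snai1* against heterozygotes was kept under 21 of 22 alternatives with the same threshold, with log2 fold changes from -0.86 to -0.58. It was lost without heterozygous library 1, at -0.66 with an adjusted p of 0.0575. Against controls *Snai1* passed under 5 of 22 alternatives, with adjusted p-values from 0.0281 to 0.167 over all of them. Those were edgeR's quasi-likelihood test on recovered reads (0.0446), voom (0.0382), the removal of the trend with gene length (0.0313), a filter at a mean value of 5 (0.0490) and leaving out homozygote replicate 1 (0.0281). Without control library 1 the difference from controls was -0.46 with an adjusted p of 0.158. The log2 fold change stayed below 0 in both comparisons under every alternative tried.

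**Figure D2:**
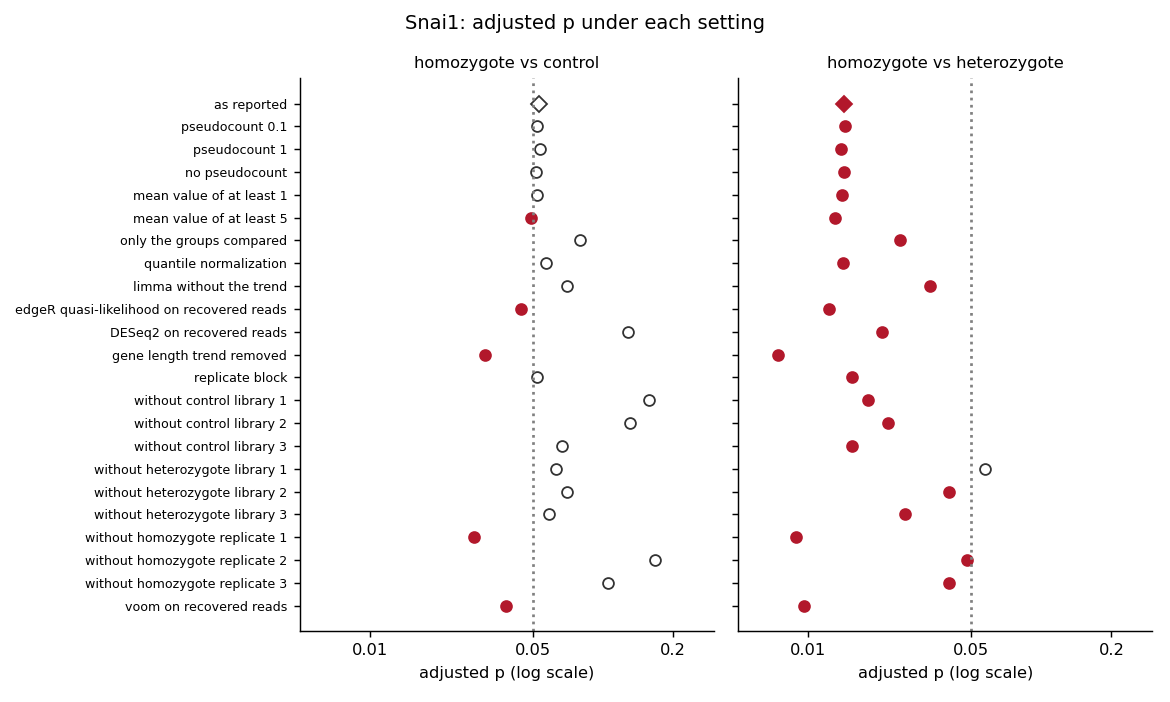
Adjusted p of *Snai1* (log axis) under each setting, for homozygotes against controls on the left and against heterozygotes on the right. The diamond is the value as reported (0.0531 and 0.0142), filled symbols lie under the dotted line at 0.05, and the right panel has a single open symbol, without heterozygous library 1.

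Over the 6 factors, 0 passed the test between homozygotes and controls, where 15.2% of all genes tested passed (7.19% as higher and 8.03% as lower). Between homozygotes and heterozygotes 1 of 6 passed, *Snai1*, where 13.6% of all genes passed (6.87% as higher and 6.7% as lower). Between heterozygotes and controls 0 of 6 passed, where 0.143% of all genes did. At an unadjusted p under 0.05, 3 of 6, 2 of 6 and 1 of 6 factors were below the threshold, where 29.6%, 27.6% and 7.37% of all genes were. The libraries of homozygotes lay entirely below those of controls for 2 of 6 factors, and 16.5% of all genes showed this. They also lay below those of heterozygotes for 2 of 6, and 15.5% of all genes showed this. The median log2 fold change of the factors was -0.14 in both comparisons with homozygotes, beside medians of -0.0011 and -0.0045 for all genes. The log2 fold change was below 0 for 6 of 6 factors against controls and for 5 of 6 against heterozygotes. An exact two-sided permutation test of 3 libraries against 3 can reach no p smaller than 0.1, and the p-values given here come from limma fits over all genes.

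**Figure D3:**
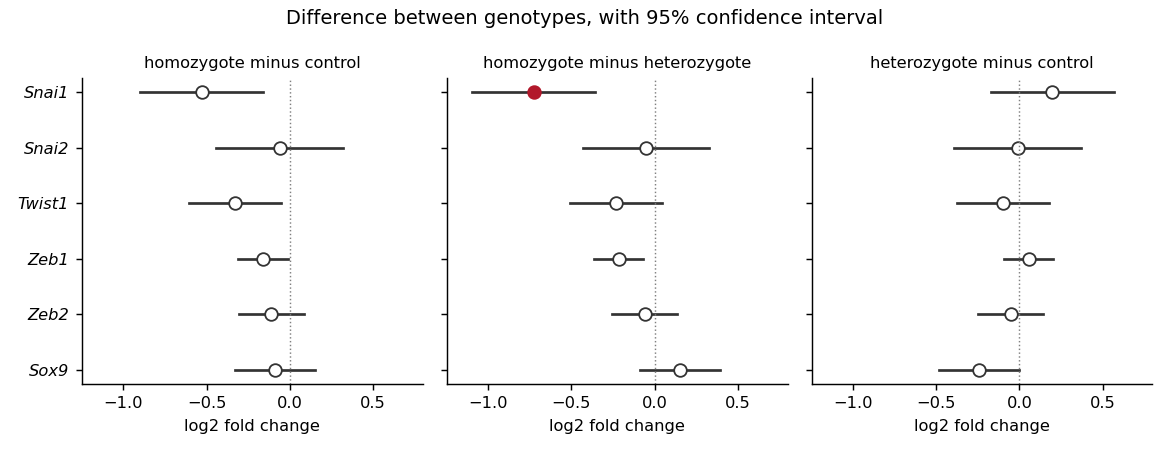
Log2 fold change of each factor (points) with its 95% confidence interval (lines) for homozygotes minus controls, homozygotes minus heterozygotes and heterozygotes minus controls. The filled point, *Snai1* at -0.73, passed the test, and the dotted line marks 0.

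*Zeb1* (ENSMUSG00000024238, chromosome 18, 5591858 to 5775465, plus strand, 9712 exonic bases) was the other factor whose homozygous libraries lay apart. Control libraries had values of 75.4, 76.9 and 85.4, heterozygous libraries had 86.3, 77.0 and 83.6, and homozygous libraries had 68.2, 71.7 and 72.4. Every homozygous value was below every value of the other genotypes, but by a small margin. The log2 fold change was -0.22 against heterozygotes (-0.36 to -0.07, adjusted p = 0.0549) and -0.16 against controls (-0.31 to -0.01, adjusted p = 0.137), so neither passed. Against heterozygotes it passed under 3 of 22 alternatives, with adjusted p-values from 0.0456 to 0.317. With the trend of the values with gene length removed, the differences were -0.12 against heterozygotes and -0.01 against controls. The annotated exons of *Zeb1* join to a long sequence, and those of *Zeb2* to a longer one.

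*Zeb2* (ENSMUSG00000026872, chromosome 2, 44839154 to 44972915, minus strand, 15368 exonic bases) had values of 53.0, 53.7 and 62.9 in controls, 56.6, 47.7 and 59.4 in heterozygotes and 53.5, 52.2 and 50.8 in homozygotes. The 3 genotypes overlapped. Homozygotes differed by -0.11 from controls (-0.31 to 0.08, adjusted p = 0.453) and by -0.06 from heterozygotes (-0.25 to 0.14, adjusted p = 0.725), and the direction turned to 0.12 and 0.08 with the length trend removed. *Zeb1* and *Zeb2* had the most similar profiles of any pair of factors, with a root mean square difference of 0.0903 in log2 value over the 9 libraries after centering, while *Snai1* and *Sox9* were farthest apart at 0.433. Each *Zeb* gene overlaps an annotated gene on the opposite strand, *Gm10125* for *Zeb1* and *Gm13476* for *Zeb2*. The kit is described as standard and the counting is not stated to use strand, so reads from either partner cannot be told apart. Both partners were low, with mean values of 2.02 to 2.28 for *Gm10125* and of 2.44 to 3.13 for *Gm13476* across the genotypes.

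*Twist1* (ENSMUSG00000035799) lies on chromosome 12 from 34642536 to 34644682 on the plus strand and has 1616 exonic bases. It had values of 31.6, 42.2 and 38.4 in controls, 36.8, 39.7 and 28.5 in heterozygotes and 29.4, 31.7 and 27.3 in homozygotes. Homozygous replicate 2 was just above control library 1, and the remaining homozygous libraries were below all controls. The log2 fold change was -0.33 against controls (-0.61 to -0.05, adjusted p = 0.0998) and -0.23 against heterozygotes (-0.51 to 0.04, adjusted p = 0.263). Without control library 1, which stood apart by its endoderm genes, *Twist1* passed against controls, at -0.45 with an adjusted p of 0.0428, and it did so under 1 of 22 alternatives. Relative to the summed endocardial and endothelial markers it had 18.5 to 24.4 units per 1000 in controls and 16.8 to 21.4 in homozygotes, which overlapped.

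*Snai2* (ENSMUSG00000022676), the paralog of *Snai1*, lies on chromosome 16 from 14705945 to 14709488 on the plus strand and has 2031 exonic bases. It had values of 10.5, 12.8 and 8.70 in controls, 12.5, 8.89 and 10.3 in heterozygotes and 8.29, 10.9 and 11.3 in homozygotes. The genotypes overlapped throughout. Homozygotes differed by -0.06 from controls (-0.44 to 0.32, adjusted p = 0.858) and by -0.05 from heterozygotes (-0.43 to 0.33, adjusted p = 0.891). Its level was close to that of *Snai1* in controls, and it rested on 36 to 127 reads per library. The intervals include differences of either sign.

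*Sox9* (ENSMUSG00000000567) lies on chromosome 11 from 112643538 to 112649074 on the plus strand and has 4135 exonic bases. Its value was 32.0, 32.9 and 36.8 in controls, 32.7, 27.2 and 26.0 in heterozygotes and 27.6, 33.1 and 35.0 in homozygotes. The homozygous libraries overlapped both other genotypes, and the lowest values were those of heterozygous libraries 2 and 3. Homozygotes differed by -0.09 from controls (-0.33 to 0.15, adjusted p = 0.640) and by 0.15 from heterozygotes (-0.09 to 0.39, adjusted p = 0.401). Heterozygotes differed from controls by -0.24 (unadjusted p = 0.0463, adjusted p = 0.670), which did not pass.

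The profiles of the factors over the 9 libraries were compared with those of 9847 genes whose mean value reached 10, by the root mean square difference in log2 value after centering. For *Snai1* the nearest were *Prr5l*, *Rcor2* and *R3hcc1*, at no more than 0.127, against a root mean square of 0.351 for the profile of *Snai1* itself. Their log2 fold changes in homozygotes were -0.47, -0.42 and -0.46 against controls and -0.61, -0.65 and -0.65 against heterozygotes. These lie near those of *Snai1* because the genes were picked by likeness over the same libraries. For *Twist1* the nearest were *Dusp7*, *Dmd* and *Irgq* (0.0792 to 0.0886), and for *Snai2* they were *Pdxp*, *Srr* and *Sema6a* (0.102 to 0.113). For *Zeb1* they were *Zmym2*, *Edc4* and *Drosha* (0.0347 to 0.0446), for *Zeb2* *Cwf19l2*, *Ascc3* and *Trp53bp2* (0.0415 to 0.0474), and for *Sox9* *Ccnt1*, *Arl5b* and *Sh3glb1* (0.0700 to 0.0811). The points compared share library depth.

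The sequence before the start of *Snai1* is shown because it is the factor that passed a test, and that of *Mmp15*, a matrix metalloproteinase known as a direct target of *Snai1* in cushion EMT, because its log2 fold change was the lowest among the mesenchymal genes below that passed, in both comparisons with homozygotes. Both are the 250 bases before the start site in RefSeq on GRCm38.p6, at chr2:167537945-167538194 on the plus strand for *Snai1* and at chr8:95352046-95352295 on the plus strand for *Mmp15*. Capitals mark matches to the E-box CAGGTG, bound by the SNAI and ZEB families, or its reverse complement CACCTG.
*Snai1*: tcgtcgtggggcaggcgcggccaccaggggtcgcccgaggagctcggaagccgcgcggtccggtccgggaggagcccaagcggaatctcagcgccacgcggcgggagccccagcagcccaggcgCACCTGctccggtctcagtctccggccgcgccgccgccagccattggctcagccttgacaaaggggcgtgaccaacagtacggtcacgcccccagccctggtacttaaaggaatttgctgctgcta
*Mmp15*: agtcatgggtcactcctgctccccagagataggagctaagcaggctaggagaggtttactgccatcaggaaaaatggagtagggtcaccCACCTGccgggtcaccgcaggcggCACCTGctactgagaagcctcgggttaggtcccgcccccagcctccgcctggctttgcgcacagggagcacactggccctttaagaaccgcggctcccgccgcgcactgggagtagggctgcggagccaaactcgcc
The *Snai1* window held 1 match, which begins 126 bases before the start, and the *Mmp15* window held 2, which begin 161 and 137 bases before it. The windows of *Twist1* and of the 4 annotated starts of *Zeb2* held 0 matches. Of the 32851 RefSeq windows of this length, 17.2% held the motif and 2.06% held it at least 2 times, and a match is a description of these letters and not evidence of binding. Windows of *Snai2* and *Sox9* were not analysed here, nor was that of *Zeb1*.

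The other transcription factors of the cushion and of EMT were counted in the same way. Of 38 tested, 0 were higher and 4 were lower than in controls (10.5%, beside 15.2% of all genes), with a median log2 fold change of -0.10. Against heterozygotes 0 were higher and 5 lower (13.2%, beside 13.6% of all genes), with a median of -0.12, and 2 and 3 were lower without heterozygous library 1 and 2. Those lower than in controls were *Hey2*, *Tbx20*, *Hand1* and *Sox6*. *Hey2*, a target of Notch in compact myocardium, was 65.9 to 75.3 in controls, 65.2 to 71.8 in heterozygotes and 40.7 to 42.1 in homozygotes, and was lower by a log2 fold change of -0.74 (adjusted p = 2.2e-05). *Tbx20*, which is needed in myocardium and in cushion mesenchyme, differed by -0.42 (adjusted p = 0.00303). *Hand1* differed by -0.45 (adjusted p = 0.00472). *Sox6*, a partner of *Sox9*, differed by -0.44 (adjusted p = 0.0273), and its call was lost without control library 3 or homozygote replicate 1 or 2 (adjusted p from 0.0537 to 0.121), with the gene length trend removed and without limma's mean-variance trend. *Sox5*, the other partner of *Sox9*, did not pass, at -0.35 (adjusted p = 0.148). Relatives of the 6 factors were low. *Snai3* had means of 0.782 to 1.30 in the genotypes and did not pass. *Twist2*, the paralog of *Twist1*, had means of 1.73 in controls, 3.14 in heterozygotes and 1.07 in homozygotes. It passed against heterozygotes, at -1.20 (adjusted p = 0.0158), but not without heterozygous library 1 or with DESeq2, and it did not pass against controls, at -0.48 (adjusted p = 0.292). The others that passed against heterozygotes were *Hey2* and *Hand1*, whose calls held under 23 of 23 alternatives, and *Tbx3* and *Nfatc4*, whose calls were lost under 14 and 9 of 23. Both were lost without heterozygous library 1 or 2 or homozygote replicate 1 or 2, that of *Tbx3* also without control library 1 or 2 and that of *Nfatc4* also without homozygote replicate 3.

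The next list held cofactors of the factors and enzymes of their turnover. Of 30 tested, 1 was lower than in controls and 1 lower than in heterozygotes, with 0 higher and a median log2 fold change of -0.02 in each (3.33% called, beside 15.2% and 13.6% of all genes). The homozygous libraries lay wholly below those of controls for 9 of the 30, beside 16.5% of all genes, and wholly above them for 5. They lay wholly below those of heterozygotes for 5, beside 15.5%, and wholly above them for 1. *Fbxo45*, part of a ubiquitin ligase for SNAI, TWIST and ZEB proteins, was 49.8 to 50.9 in controls and 39.8 to 43.7 in homozygotes (-0.27, adjusted p = 0.0317), and lost its call under 10 of 23 alternatives, among them leaving out any control library or homozygote replicate 2 or 3. *Kdm1a*, a histone demethylase recruited by SNAI1, was -0.23 against heterozygotes (adjusted p = 0.0452), and lost its call under 16 of 23. The E-protein partners of *Twist1* did not pass: *Tcf3* differed by 0.01, *Tcf4* by -0.22 and *Tcf12* by -0.14 against controls (adjusted p from 0.0573 to 0.957). The corepressors *Ctbp1* and *Ctbp2*, which bind ZEB proteins, differed by 0.09 and -0.22 (adjusted p = 0.358 and 0.0610).

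**Figure D4:**
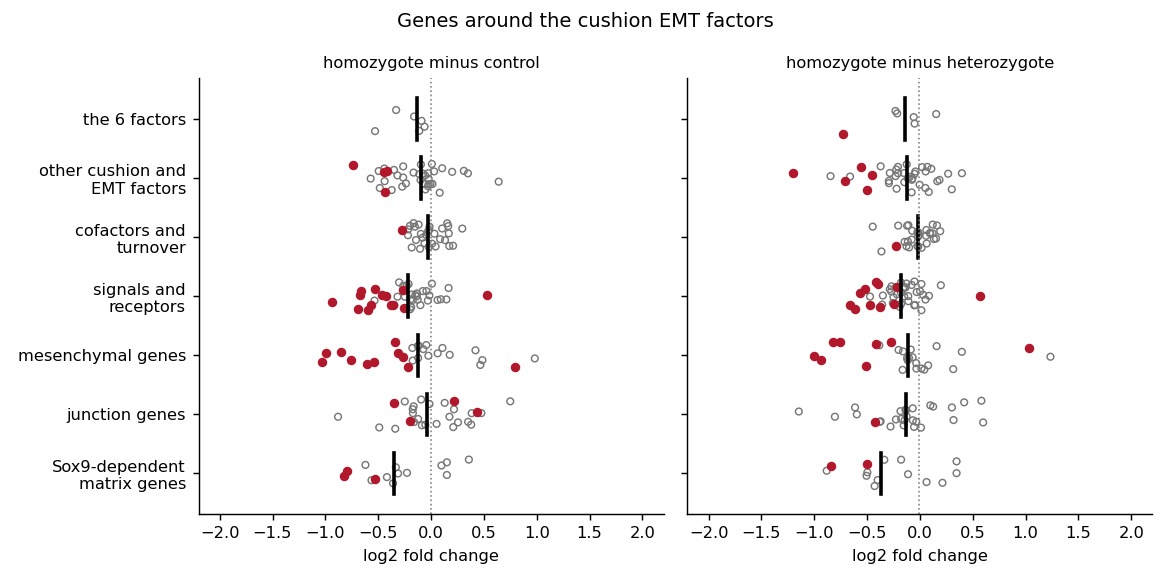
Log2 fold change of every tested gene of the 6 factors and of lists of genes around them, for homozygotes minus controls (left) and homozygotes minus heterozygotes (right). Filled points passed the test, open points did not, vertical bars are list medians and the dotted line is the median of all genes. The signal and mesenchymal lists hold 14 and 11 filled points on the left, all but 1 in each below 0.

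Signals that induce the transition, and their receptors, were mostly lower where they changed. Of 44 tested, 13 were lower and 1 higher than in controls (31.8%, beside 15.2% of all genes), and 10 were lower and 1 higher than in heterozygotes (25.0%, beside 13.6%), with median log2 fold changes of -0.22 and -0.18. *Bmp2*, the myocardial ligand that starts cushion EMT, was 33.7 to 38.8 in controls, 27.3 to 32.4 in heterozygotes and 19.2 to 25.5 in homozygotes. The 3 genotypes did not overlap, and homozygotes differed by -0.69 from controls (adjusted p = 0.00148) and by -0.42 from heterozygotes (adjusted p = 0.0243). The call against heterozygotes was lost without heterozygous library 1 or 3 or homozygote replicate 1 or 3, and that against controls held in each case. *Tgfb2*, a ligand of the same myocardium, was 84.8 to 88.2, 81.1 to 94.8 and 61.9 to 71.7, which gave -0.37 against controls (adjusted p = 0.00452). *Tgfb3* was the gene that rose, from 13.8 to 15.7 in controls to 20.0 to 22.8 in homozygotes (0.53, adjusted p = 0.00808). Among receptors, *Bmpr2* differed by -0.94 and *Tgfbr3*, a coreceptor of TGFβ2, by -0.67 against controls (adjusted p = 0.000328 and 0.000431). *Vcan*, a proteoglycan of the cushion matrix, differed by -0.67, and *Erbb2* by -0.56 (adjusted p = 0.00226 and 0.00355). *Nf1*, a brake on Ras in the cushion, differed by -0.47 from controls (adjusted p = 0.00405) and by -0.05 from heterozygotes (adjusted p = 0.753). Under the alternatives with the same threshold 7 to 15 of the 44 were lower than in controls and 4 to 12 lower than in heterozygotes. Both lowest numbers came without limma's mean-variance trend, and 6 were lower than in heterozygotes without heterozygous library 1.

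Genes of the mesenchymal state were mostly lower in homozygotes where they passed the test. Of 26 tested, 10 were lower and 1 higher than in controls (42.3%, beside 15.2% of all genes), and 7 were lower and 1 higher than in heterozygotes (30.8%, beside 13.6%), with medians of -0.12 and -0.11. *Mmp15* had values of 121, 138 and 137 in controls, 125, 136 and 125 in heterozygotes and 67.3, 69.0 and 56.5 in homozygotes. The homozygous libraries were far below all others, and the log2 fold change was -1.04 against controls (-1.21 to -0.86, adjusted p = 4.96e-06), and the mean of homozygotes was 49.9% of that of heterozygotes (adjusted p = 1.1e-05). *Tnc*, *Cd44*, *Timp2*, *Tgfbi* and the integrins *Itga5* and *Itgb1* differed by -0.99, -0.85, -0.75, -0.61, -0.54 and -0.32 against controls (adjusted p from 4.71e-05 to 0.0178). *Cdh2*, the N-cadherin gene, was 272 to 307, 283 to 333 and 191 to 255 (-0.34, adjusted p = 0.0284), and it is also a gene of cardiomyocytes. Its call was lost without control library 2 or 3 or homozygote replicate 3, with the gene length trend removed and without limma's mean-variance trend. The number of genes lower than in controls was 6 without control library 2, and without limma's trend it was 5 against controls and 4 against heterozygotes. *Lox*, a collagen crosslinking enzyme, rose by 0.80 against controls (adjusted p = 0.00739) and by 1.03 against heterozygotes (adjusted p = 0.00178). *Vim* and *Fn1* did not pass, at 0.06 and -0.18 against controls (adjusted p = 0.548 and 0.211).

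**Figure D5:**
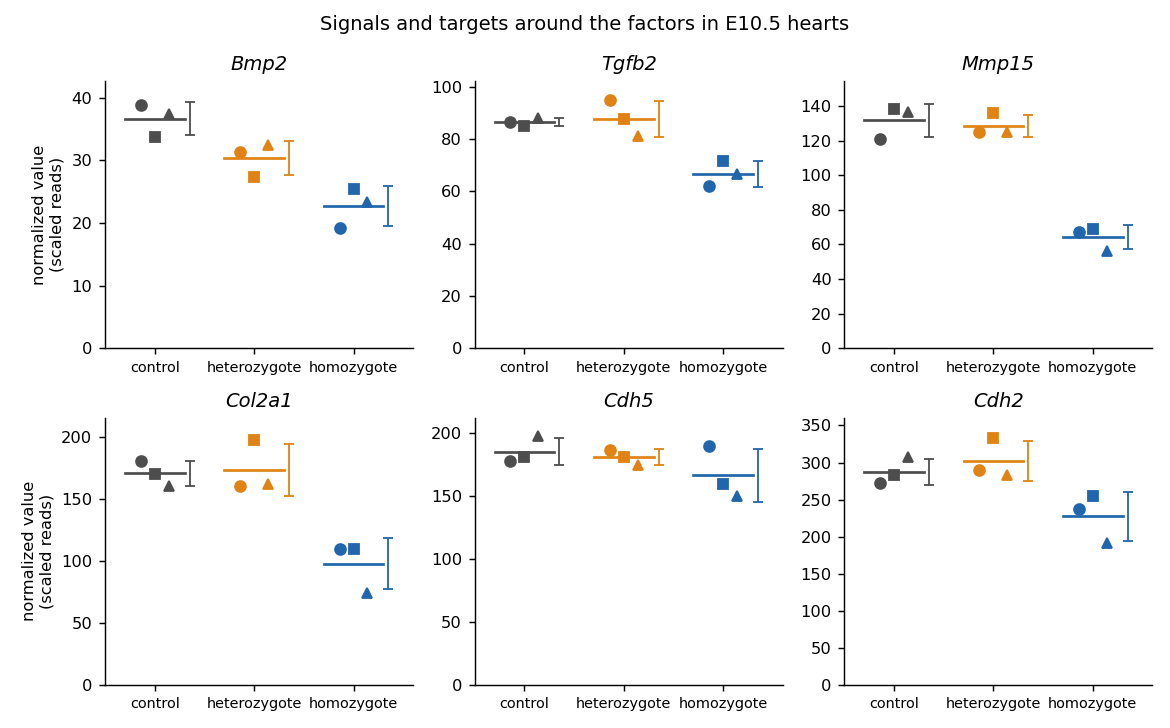
Normalized value (scaled reads, linear axes from 0) of 2 inducing ligands (*Bmp2*, *Tgfb2*), a target of *Snai1* (*Mmp15*), a target of *Sox9* (*Col2a1*) and 2 cadherins (*Cdh5*, *Cdh2*) in each library. Symbols, lines and bars are as for the factors; homozygous libraries lie below all others for every gene but *Cdh5*.

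Junction genes of the kind that SNAI and ZEB factors repress went in both directions. Of 28 tested, 2 were higher (*Krt18* and *F11r*) and 2 lower (*Pkp2* and *Tjp1*) in homozygotes than in controls, and 0 were higher and 1 lower (*Pkp2*) than in heterozygotes. These are 14.3% and 3.57% of the list, beside 15.2% and 13.6% of all genes, with medians of -0.03 and -0.13. The calls of *Krt18*, *F11r* and *Tjp1* did not hold with each library left out in turn, which gave 0 to 2 genes higher and 1 to 4 lower than in controls, and that of *Pkp2* held. The libraries behind this range were control libraries 1, 2 and 3, heterozygous libraries 1 and 2 and homozygote replicates 1, 2 and 3. *Cdh5*, the cadherin of endocardium, was 178, 181 and 198 in controls and 190, 160 and 150 in homozygotes, which overlapped (-0.16, adjusted p = 0.193). *Cdh1*, the epithelial cadherin and the best known target of these repressors, was 15.7 in control library 1 and 0.559 to 5.79 in the other libraries, so its highest value was in the library with the endoderm genes. Its log2 difference between homozygotes and controls was -0.25 (-1.91 to 1.41, adjusted p = 0.870), and without that library the direction turned, to 0.90 (-0.20 to 2.01, adjusted p = 0.290). Against heterozygotes it was -0.80 with or without that library (adjusted p = 0.541 and 0.289). Between heterozygotes and controls it was 0.56 with it and 1.71 without it (adjusted p = 0.938 and 0.632).

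Of 14 tested genes of cartilage-like matrix known to depend on SOX9, 3 were lower than in controls, *Col2a1*, *Papss2* and *Col9a3*, and 2 were lower than in heterozygotes, with 0 higher and medians of -0.35 and -0.37. These are 21.4% and 14.3% of the list, beside 15.2% and 13.6% of all genes. *Col2a1*, encoding the type II collagen that SOX9 activates, was 180, 170 and 161 in controls, 160, 197 and 162 in heterozygotes and 110, 109 and 74.1 in homozygotes. All homozygous libraries were below the rest, at -0.82 against controls (adjusted p = 0.00114), while *Sox9* itself differed by -0.09. *Papss2*, an enzyme that activates sulfate for proteoglycans, differed by -0.79 (adjusted p = 0.000515). *Col9a3* differed by -0.53 (adjusted p = 0.0331), and not past the threshold without control library 2 or 3 or homozygote replicate 1 or 3, with DESeq2, with the replicate block or without limma's mean-variance trend. Without heterozygous library 3, 4 of the 14 were lower than in heterozygotes.

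Markers of the cell types of the heart went in different directions, and those of epicardium were higher in homozygotes. Of 16 cushion mesenchyme markers 4 were lower than in controls (*Papss2*, *Tnc*, *Postn* and *Pdgfra*, of which the former pair is also in the lists above) and 1 was higher (*Dcn*), or 31.25% beside 15.2% of all genes, and *Hapln1* did not pass (-0.23, adjusted p = 0.0626). Against heterozygotes 5 of the 16 were lower, the same 4 and *Twist2*, and 1 was higher (37.5%, beside 13.6% of all genes), and 3 were lower without heterozygous library 1. Without limma's mean-variance trend 1 was lower than in controls, with *Tnc*, *Postn* and *Pdgfra* not passing, and 2 were lower than in heterozygotes. Their summed values were 2094 to 2183 in controls, 2048 to 2108 in heterozygotes and 1852 to 2259 in homozygotes, which overlapped. The overlap came from homozygote replicate 1, at 2259, while replicates 2 and 3, at 1873 and 1852, lay below every other library. *Postn* and *Pdgfra* differed by -0.53 and -0.40 (adjusted p = 0.00735 and 0.0107). Of 18 endocardial and endothelial markers 3 were lower and 2 higher than in controls (27.8%, beside 15.2%), with summed values of 1708 to 1865 in controls, 1651 to 1719 in heterozygotes and 1475 to 1754 in homozygotes. Here too homozygote replicate 1, at 1754, overlapped the other genotypes, and replicates 2 and 3, at 1486 and 1475, lay below them. The number lower was 8 without homozygote replicate 1, 2 without control library 2 and 1 without control library 3 or homozygote replicate 2 or 3, and the number higher was 1 without control library 1 or 3 or homozygote replicate 1 or 2. Against heterozygotes 1 of the 18 was lower (*Kdr*) and 1 higher (*Sox17*), or 11.1% beside 13.6% of all genes. Leaving out single libraries gave 0 to 4 lower, with 4 without homozygote replicate 1 and 0 without any heterozygous library or homozygote replicate 2 or 3, and 0 higher without heterozygous library 1 or 3 or any homozygote replicate. Of 18 cardiomyocyte markers 5 were lower and 2 higher than in controls (38.9%, beside 15.2%), and 8 were lower and 0 higher than in heterozygotes (44.4%, beside 13.6%). Those numbers lower were 2 and 2 without limma's mean-variance trend, 3 without control library 2 or 3 or homozygote replicate 3 against controls, and 5 against heterozygotes without heterozygous library 2 or 3 or homozygote replicate 3. The number higher than in controls was 1 without control library 1 or 3, heterozygous library 3 or any homozygote replicate. Epicardial markers were higher, 7 of 12 in each comparison with homozygotes (58.3%, beside 15.2% and 13.6% of all genes), with summed values of 592 to 653 in controls, 624 to 647 in heterozygotes and 796 to 856 in homozygotes. Of 6 neural crest markers, *Dlx2* not counted, 2 were lower than in controls, beside 8.03% of all genes (1 without control library 2 or 3, and 3 without heterozygous library 3), and 0 were lower than in heterozygotes (2 without heterozygous library 3 and 1 without homozygote replicate 1). Of 10 macrophage markers 1 passed against controls (*Lyz2*, lower) and 2 against heterozygotes (*Lyz2*, lower, and *C1qb*, higher), or 10% and 20% beside 15.2% and 13.6% of all genes, and neither call against heterozygotes held with each library left out in turn. Of 10 endoderm markers 1 was higher in each comparison (*Sox17*, also an endothelial marker), or 10%, and of 6 second heart field markers 0 passed in either. *Dlx2* was left out because it reached a value of 1 in all 3 homozygous libraries but in only 1 other library and so entered the table through the homozygotes. *S100a4* entered in the same way and was kept among the mesenchymal genes. It did not pass against controls or heterozygotes (limma, adjusted p = 0.118 and 0.0579). The part of these cell types in the values of the 6 factors was not tested. Between heterozygotes and controls 0 genes of any of these lists passed the test.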

How the data were processed

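RNA was sequenced from 9 libraries of pooled E10.5 mouse hearts. Per the labels, polyA RNA libraries were made with a standard Illumina TruSeq kit, and the submitters' processing notes name CASAVA 1.8, cutadapt 1.6.1, RSEM 1.20, Bowtie2 0.12.7 and limma on NCBIM37, with no order or role. The authors deposited a table of normalized signal values per gene. Adding 0.5 to whole read counts and scaling by library gave 100% of the deposited signal values (tolerance 0.01 reads), so the values were already normalized, and each listed gene reached 1 in no fewer than 3 libraries, so a gene could enter through 1 genotype. Genotypes of columns were read from group averages in the study's supplementary data and from the labels. Control columns are named Het and heterozygous columns DH, and their numbers are not those of labelled samples.

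Values were analyzed as log2(value + 0.5), which understates changes of low genes, with limma 3.58.1 in R 4.3.3. The 9 libraries were fitted together with a mean-variance trend, p-values were adjusted by Benjamini-Hochberg over 14011 genes, and genes passed at an adjusted p under 0.05. No source says that pools came from separate litters, so p-values measure the spread between pools. The alternatives were pseudocounts, filters on low values, a fit of the groups compared, quantile normalization, no trend, edgeR 4.0.16, DESeq2 1.42.0, removal of the gene length trend, a replicate block, a threshold of 0.01 and leaving out each library. Voom, and all alternatives for the lists, were added after seeing the data. Positions and exonic lengths were taken from GENCODE M1 on NCBIM37, similar sequences in that genome from BLAST+ 2.17.0 and start sites from RefSeq on GRCm38.p6. Scripts were tested on simulated data.

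The 6 factors and all lists were chosen with earlier results of these data known. Named with values were the factors, at most 8 passing genes of a list by smallest adjusted p against controls, and set partners and markers; genes passing only against heterozygotes were named after their values were seen.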

Additional observations from a re-analysis of the deposited data

How the results depend on the processing

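The number of factors that passed between homozygotes and controls was 0 as reported and 1 under a filter at a mean value of 5, edgeR, removal of the gene length trend and voom, and 0 to 1 with a library left out. Between homozygotes and heterozygotes it was 1 as reported, 2 under the filter at 5, 0 at a threshold of 0.01, and 0 to 2 with a library left out. With the gene length trend removed *Zeb2* turned to a log2 difference of 0.12 against controls, 0.0841 against heterozygotes and 0.0358 between heterozygotes and controls. Leaving out a library turned the sign of other small differences. *Snai2* ranged from -0.19 to 0.0723 against controls (above 0 without control library 2 or homozygote replicate 1), from -0.16 to 0.0834 against heterozygotes (above 0 without heterozygous library 1, at 0.0733, or homozygote replicate 1) and from -0.14 to 0.12 between heterozygotes and controls (above 0 without control library 2 or heterozygous library 2, at 0.10, or 3, at 0.0016). *Zeb2* ranged from -0.15 to 0.0044 against heterozygotes (above 0 without heterozygous library 3) and from -0.12 to 0.0404 between heterozygotes and controls (above 0 without control library 3, at 0.0263, or heterozygous library 2). *Sox9* ranged from -0.16 to 0.0092 against controls (above 0 without homozygote replicate 1), and *Twist1* from -0.21 to 0.0409 between heterozygotes and controls (above 0 without heterozygous library 3). The cause was not tested.

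The numbers that end the column names did not pair the libraries: the correlation of deviations was -0.043 to 0.085 over 9 pairs, 0 of them over 0.1, and 0 libraries correlated best with their own number in both other genotypes. With these numbers as a replicate block *Snai1* had adjusted p-values of 0.0521 against controls and 0.0154 against heterozygotes, and the number of factors that passed was unchanged at 0, 1 and 0. Over all genes 2133, 1901 and 20 passed, which became 1196, 1063 and 10 without the trend, 858, 722 and 13 at 0.01, and 40 between heterozygotes and controls with DESeq2. Leaving out a library gave as few as 1049 (without control library 3), 1023 (without homozygote replicate 3) and 13 (without heterozygous library 3). Read counts were lowest for *Snai1* and *Snai2*, with as few as 27 and 36 reads in a library.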
